A study of Homo sapiens with 12 samples.

Results

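The keratin genes of human ectocervical epithelial cells were examined after exposure to seminal plasma or to a single growth factor. Every probe set whose only deposited gene symbol was KRT followed by a number and at most 1 letter was taken, which gave 64 of 54613 probe sets and 50 of 19748 genes with a symbol of their own. A probe set is a group of short probes read as 1 signal, and each gene was represented by its probe set with the highest mean over the 12 arrays. Of the 50 genes, 39 had 1 probe set and 11 had several. The genes were taken by name, not by how they responded, although earlier results of these data were known when the family was chosen.

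Ect1 is an immortalised line of ectocervical epithelium, the stratified lining of the outer cervix. Confluent monolayers were given fresh keratinocyte serum-free medium alone (control), the same medium with 10% pooled human seminal plasma, or the same medium with TGFB3, a growth factor of the TGF-beta family, at 5 ng/ml. All groups were collected after 10 h and share the medium's supplements, EGF, bovine pituitary extract and calcium. Each group had 4 arrays, and each array held RNA pooled from 4 wells of its own, so that the results describe 1 cell line and 1 time. Seminal plasma itself brings RNA and many signalling molecules, and a monolayer on plastic lacks the layers of the tissue.

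Keratins are the intermediate filament proteins of epithelia. Each filament is built from a type I keratin paired with a type II keratin, and most type I genes lie in a cluster on chromosome 17 and the type II genes in a cluster on chromosome 12, where the type I gene KRT18 also lies. Cells exchange keratin pairs as they change state: KRT5 and KRT14 mark the basal layer of stratified epithelium, KRT1 and KRT10 the cornifying layers, KRT4 and KRT13 the upper layers of wet mucosa, KRT6, KRT16 and KRT17 wounded or stressed epithelium, and KRT8 and KRT18 simple epithelium. Of the 50 genes here, 26 were type I and 24 type II, and 25 lay on chromosome 17 and 25 on chromosome 12.

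The gene sequences that a reader may want beside the values are the stretches just before the transcription start. They are given for KRT5 and KRT8, which are the type II partners of KRT14 and KRT18, and for KRT10 and KRT33B. On its brightest probe set, KRT10 had seminal plasma arrays below those of both other groups. KRT33B, a hair keratin, had seminal plasma arrays above both other groups. The stretches are the last 100 bases before the start in RefSeq (build GRCh38.p14), all on the minus strand. They are written 5′ to 3′, with the letters TATAAA in capitals where they occur.
KRT5, chr12:52520395-52520494: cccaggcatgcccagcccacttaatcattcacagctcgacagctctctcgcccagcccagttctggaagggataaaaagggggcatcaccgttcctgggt
KRT8, chr12:52926470-52926569: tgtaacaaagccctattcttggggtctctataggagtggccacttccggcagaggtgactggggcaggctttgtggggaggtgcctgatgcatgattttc
KRT10, chr17:40822615-40822714: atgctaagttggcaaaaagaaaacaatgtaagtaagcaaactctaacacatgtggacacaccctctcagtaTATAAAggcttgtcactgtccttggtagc
KRT33B, chr17:41369814-41369913: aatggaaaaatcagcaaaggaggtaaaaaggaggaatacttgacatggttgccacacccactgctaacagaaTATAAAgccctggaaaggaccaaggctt

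The 250 bases before the start were searched on both strands for TATAAA, the letters of a TATA box, for GGGCGG, the letters of a GC box, and for TGANTCA, the letters of an AP-1 site. RefSeq entries were matched for 31 of the keratin genes, 5 of them among the 17 bright genes described below. TATAAA was present in 17 of 31 keratin promoters (54.8%), against 10.7% of all 35116 promoters of the same length. In KRT10 it began 29 bases before the start, and in KRT33B 28 bases before. It was found in 1 of the 5 bright keratins with an entry, in 16 of the 26 dim ones and in 9 of the 13 hair and nail keratins with an entry. GGGCGG was present in 4 keratin promoters (12.9%, against 42.6% of all), and TGANTCA in 0 (against 6.57%). These matches describe letters in a window and say nothing of which factors bind there.

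The signal is a linear intensity in arbitrary units, which can be compared between arrays for 1 probe set but not between probe sets. Arrays 3 and 4 of the seminal plasma group stood apart from the other 10 before any gene was considered. Their median signals were 178 and 131, against 88.1 to 107 on the others, and 8.01% and 12.8% of their probe sets lay below 16, against 16.3% to 20.2%. The 100 brightest probe sets took 18.4% and 15.4% of their total signal, against 7.66% to 11.6%. The median change with seminal plasma against control was 0.20 on the log2 scale over all probe sets and 0.11 over all genes. Over the genes with a mean signal of 200 or more it was -0.1. Keratin changes are therefore to be read against the median for genes of like signal. Changes of the bright keratins with seminal plasma against control are given with and without these arrays. All 50 keratin genes together took 0.535% to 0.748% of the total signal in control, 0.588% to 0.786% with seminal plasma and 0.577% to 0.696% with TGFB3, and these ranges overlapped.

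The epithelial label was checked on 6 marker genes (CDH1, EPCAM, TP63, ITGA6, LAMA3 and COL17A1). All 6 had a mean signal of 200 or more, and their summed signal was 45700 to 54100 in control, 31800 to 51100 with seminal plasma and 52100 to 63300 with TGFB3. Of 5 leukocyte markers 1 reached that level, of 5 fibroblast markers 2, of 3 measured columnar epithelium markers 1 and of 4 sperm markers 0. The leukocyte marker LYZ, at 38.2 to 70.7 in control and 5.56 to 21.6 with seminal plasma, was the only marker of another cell type to pass the test. Of 6 prostate and seminal vesicle markers 1 had a mean of 200 or more and 0 passed the test, and their summed signal was 745 to 1010 in control, 1030 to 1520 with seminal plasma and 689 to 1030 with TGFB3. SEMG1, a defining product of the seminal vesicle, lay below 16 on 10 of the 12 arrays. The exceptions were seminal plasma arrays 1 (54.0) and 2 (19.5). MSMB was higher on every seminal plasma array (177 to 235) than in control (28 to 159) or with TGFB3 (41 to 154). Of the 6, ACP3 had the other sign, at 110 to 237 in control and 54.9 to 177 with seminal plasma. The sperm marker PRM1 was 14.1 to 70.7 in control and 71.6 to 313 with seminal plasma. The median change of the 4 sperm markers was -0.03. The part of carried-over RNA in the keratin values was not tested.

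A mean signal of 200 or more, called bright here, was reached by 17 of the 50 keratin genes and by 55.1% of all genes. Probes differ in brightness, so this line sorts probe sets by how well they could be read and ranks no gene against another. These were all 3 basal keratins, all 4 measured wound and stress keratins, 6 of 7 simple epithelium keratins, 2 of 5 cornifying keratins, 1 of 7 keratins of mucosa and cornea, 1 of 8 of the hair root sheath and companion layer and 0 of 15 hair and nail keratins. They comprised 10 type I and 7 type II genes. The other 33 had means of 6.42 to 188, and 19 of them lay below 16 on at least 1 array.

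**Figure D1:**
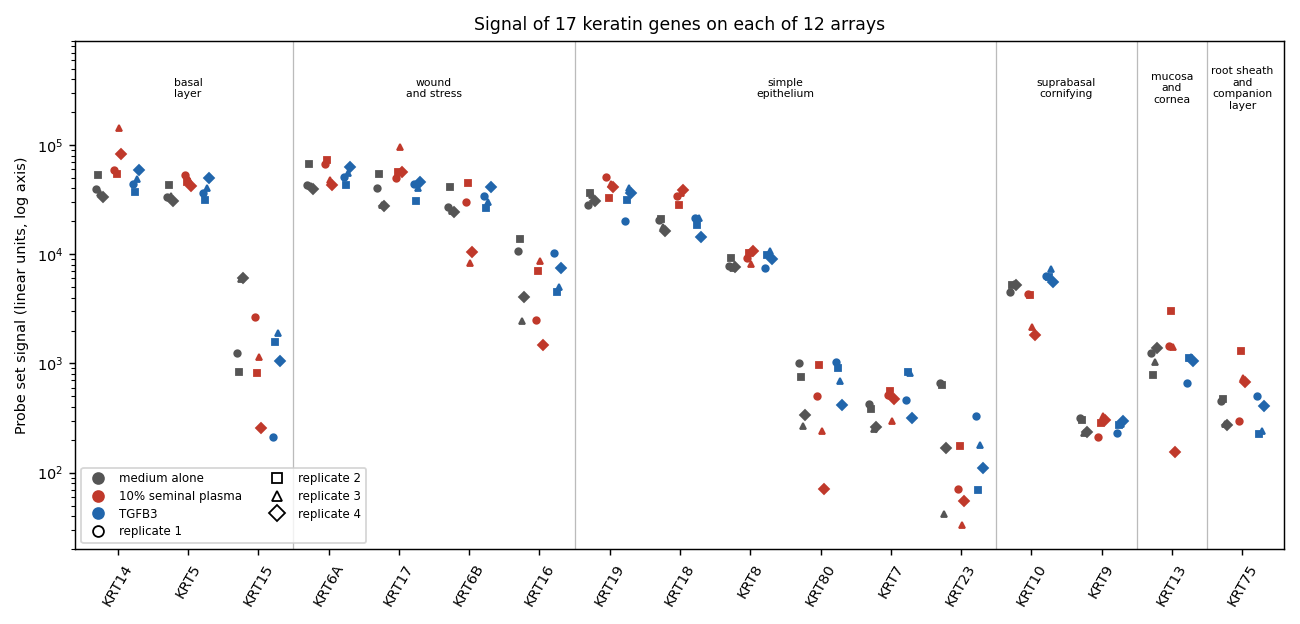
Signal of the 17 keratin genes with a mean of 200 or more on each of the 12 arrays (linear units on a log axis), with colours for treatment, symbols for replicate number and panels for role. The seminal plasma points of KRT18 lie above all other KRT18 points, while KRT15, KRT16, KRT23 and KRT80 spread widely among the 4 controls.

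KRT18, the type I keratin of simple epithelium, rose with seminal plasma and was the only one of the 50 keratin genes to pass the test against control, where 3.26% of all genes passed. In bulk RNA, a change in the number of cells making a transcript and a change in its amount per cell cannot be told apart. Its control signals were 20563, 20887, 17773 and 16140, its seminal plasma signals 34106, 27973, 36511 and 38570, and its TGFB3 signals 21664, 18358, 21454 and 14307. Every seminal plasma array was higher than every array of the other groups, and the control and TGFB3 arrays overlapped. The group means were 18841 ± 2279 (SD, n = 4) in control, 34290 ± 4590 with seminal plasma and 18946 ± 3442 with TGFB3. The change with seminal plasma was 0.86 ± 0.18 on the log2 scale (SE; 95% interval 0.46 to 1.27; limma adjusted p = 0.0392), a 1.82-fold rise. Against TGFB3 it was 0.87 ± 0.18 (limma adjusted p = 0.0467). TGFB3 itself changed KRT18 by -0.00 ± 0.18 against control (interval -0.41 to 0.40; limma adjusted p = 1).

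The KRT18 call was close to the threshold. Without seminal plasma arrays 3 and 4 the change was 0.72 (limma adjusted p = 0.151), and the remaining arrays, 34106 and 27973, were still above all 8 others. Scaling moved the value more: it was 0.44 after quantile normalization (limma adjusted p = 0.2) and 0.48 after median centring (limma adjusted p = 0.263). The probe set is of the kind whose probes can also match related transcripts, and KRT18 and KRT8 have many pseudogenes, whose signals cannot be told apart from theirs here. The authors' deposited table lists KRT18 with a fold of 1.82, p = 0.0 as printed there, and no call. KRT5, with a fold of 1.34 and p = 0.0006 there, was not called either, so the authors' call did not rest on p alone.

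KRT8, the type II partner of KRT18, moved less. Its signals were 7772, 9192, 7497 and 7565 in control, 9181, 10253, 8203 and 10779 with seminal plasma and 7548, 9836, 10586 and 9130 with TGFB3. The 3 groups overlapped. KRT8 changed by 0.26 ± 0.16 with seminal plasma (interval -0.10 to 0.61; limma adjusted p = 0.335; 0.28 without arrays 3 and 4) and by 0.21 ± 0.16 with TGFB3 (interval -0.15 to 0.56; limma adjusted p = 0.922).

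A ratio of partners on the same array is unchanged by any single factor applied to that array, though not by quantile normalization, and 6 type I and type II pairs, chosen after their values were seen, were compared by it. The log2 ratio of KRT18 to KRT8 signals was 1.40, 1.18, 1.25 and 1.09 on the control arrays, 1.89, 1.45, 2.15 and 1.84 with seminal plasma and 1.52, 0.90, 1.02 and 0.65 with TGFB3. All 4 seminal plasma ratios were above all 4 control ratios, by a mean of 0.60 (two-sided exact permutation p = 0.0286, the smallest that 4 against 4 arrays can give, and 0.309 after Benjamini-Hochberg adjustment over the 18 tests). Against TGFB3 the groups overlapped, with a difference of 0.81 (exact permutation p = 0.0571, adjusted 0.309). TGFB3 and control differed by -0.21 (exact permutation p = 0.314, adjusted 0.435). No pair passed after adjustment, but a single pair at the smallest possible p could not have done so alone.

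**Figure D2:**
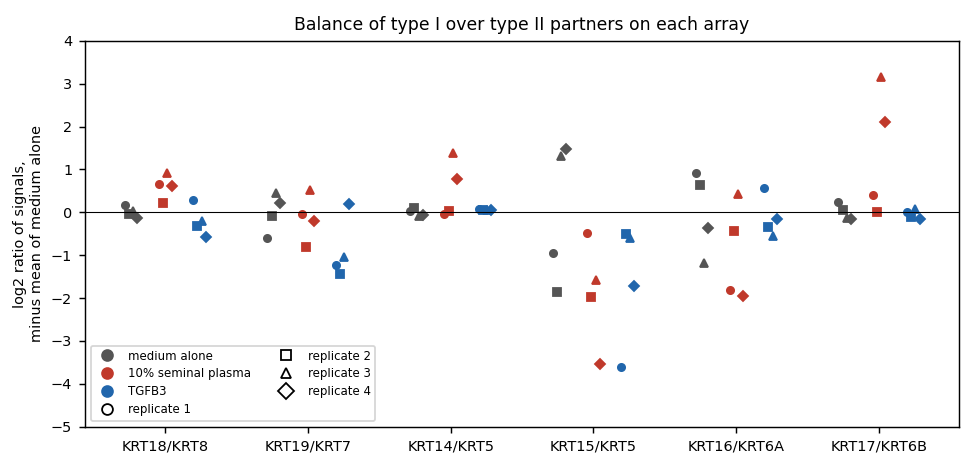
Log2 ratio of the type I to the type II partner signal on each array, minus the mean of the medium-alone arrays, for 6 pairs, with colours for treatment and symbols for replicate number. KRT18/KRT8 is raised on all 4 seminal plasma arrays, whereas KRT14/KRT5 and KRT17/KRT6B are raised mainly on seminal plasma arrays 3 and 4. KRT6B is read here on its brighter probe set, which had 8394 and 10374 on those 2 arrays. Its other probe set had 31893 and 21854 there, so the rise of KRT17/KRT6B depends on the probe set.

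Among the other simple epithelium keratins, none passed the test. KRT7, the type II keratin of glandular and transitional epithelia, had signals of 422, 379, 252 and 261 in control, 513, 559, 300 and 476 with seminal plasma and 465, 836, 824 and 317 with TGFB3. The 3 groups overlapped, although TGFB3 replicates 1, 2 and 3 were above every control. With TGFB3 it changed by 0.82 ± 0.35 (interval 0.05 to 1.58; limma adjusted p = 0.616), and with seminal plasma by 0.49 ± 0.35 (limma adjusted p = 0.399), or 0.74 without arrays 3 and 4. A second KRT7 probe set, with a mean of 413, changed by only 0.19 with TGFB3. KRT19, a type I keratin found in many simple and some stratified epithelia, ranged from 28079 to 36236 in control, 32459 to 50627 with seminal plasma and 20177 to 40589 with TGFB3, and changed by 0.36 ± 0.23 with seminal plasma (limma adjusted p = 0.357), or 0.33 without arrays 3 and 4. A second, dim KRT19 probe set with a mean of 72.7 had the other sign, at -1.67 ± 0.63 (limma adjusted p = 0.14).

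The basal keratins were bright in every group. KRT14, the type I basal keratin, had signals of 39437, 52884, 36387 and 33515 in control, 59299, 53925, 142997 and 82504 with seminal plasma and 44226, 36898, 48335 and 58918 with TGFB3. All seminal plasma arrays were above all controls, but arrays 3 and 4 carried most of the difference, and array 2 exceeded the highest control only narrowly. KRT14 changed by 0.97 ± 0.30 with seminal plasma (interval 0.30 to 1.64; limma adjusted p = 0.0903), by 0.50 without arrays 3 and 4 (limma adjusted p = 0.353) and by 0.02 after quantile normalization (limma adjusted p = 0.97). With TGFB3 it changed by 0.22 ± 0.30 (limma adjusted p = 0.989). The authors' deposited table called KRT14 changed with seminal plasma, with a fold of 2.09 and p = 0.0343.

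KRT5, the type II partner of KRT14, ranged from 30577 to 42853 in control, 42025 to 52921 with seminal plasma and 31305 to 49576 with TGFB3. It changed by 0.43 ± 0.18 with seminal plasma (interval 0.03 to 0.83; limma adjusted p = 0.173), or 0.50 without arrays 3 and 4. The log2 ratio of KRT14 to KRT5 was 0.10 to 0.30 on the controls and 0.24 to 0.27 with TGFB3. With seminal plasma it was 0.16, 0.23, 1.58 and 0.97, so that arrays 1 and 2 lay within the control range and arrays 3 and 4 well above it. Over all 4 arrays the difference from control was 0.54 (exact permutation p = 0.229, adjusted 0.421).

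KRT15, a type I basal keratin that can pair with KRT5, varied widely within groups. Its signals were 1235, 841, 5966 and 6055 in control, 2679, 826, 1138 and 256 with seminal plasma and 211, 1557, 1902 and 1063 with TGFB3. Controls 3 and 4 were high and controls 1 and 2 were within the range of the treated arrays. The changes were -1.47 ± 0.94 with seminal plasma (interval -3.55 to 0.62; limma adjusted p = 0.353; -0.73 without arrays 3 and 4) and -1.45 ± 0.94 with TGFB3 (limma adjusted p = 0.854).

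In the wound and stress group, KRT17, a type I keratin induced in injured epithelium, had signals of 39991, 54580, 28505 and 27454 in control, 50303, 56219, 94868 and 56398 with seminal plasma and 43601, 30918, 40339 and 46210 with TGFB3. The seminal plasma arrays were above all TGFB3 arrays and overlapped the controls through control 2. KRT17 changed by 0.79 ± 0.28 with seminal plasma (interval 0.18 to 1.39; limma adjusted p = 0.117), and by 0.56 without arrays 3 and 4 (limma adjusted p = 0.419). On its other probe set the seminal plasma arrays, at 32598 to 77468, overlapped the TGFB3 arrays, at 26609 to 39949. KRT6A, a type II keratin of wound edges, ranged from 39664 to 66768 in control, 43211 to 72109 with seminal plasma and 42881 to 63005 with TGFB3, and changed by 0.27 ± 0.23 with seminal plasma (limma adjusted p = 0.496), or 0.57 without arrays 3 and 4.

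KRT6B, a close copy of KRT6A, gave opposite directions on its 2 probe sets. On the brighter one its signals were 26928, 41266, 24600 and 24271 in control, 29822, 44420, 8394 and 10374 with seminal plasma and 34191, 26518, 30274 and 40836 with TGFB3. Seminal plasma arrays 3 and 4 were the lowest of all 12, array 1 was in the control range and array 2 above it, and the change was -0.63 ± 0.48 (limma adjusted p = 0.435), or 0.35 without arrays 3 and 4 (limma adjusted p = 0.613). On the other probe set the signals were 16962, 17255, 3324 and 4594 in control, 19350, 35189, 31893 and 21854 with seminal plasma and 18982, 10788, 12307 and 8748 with TGFB3. There every seminal plasma array was above every other array, controls 3 and 4 were the lowest, and the change was 1.68 ± 0.53 (limma adjusted p = 0.0936), or 1.67 without arrays 3 and 4 (limma adjusted p = 0.343). The authors' deposited table called this second probe set changed with seminal plasma, with a fold of 2.57 and p = 0.0022. A probe set shared by KRT6A, KRT6B and KRT6C ranged from 15334 to 36993 in control and 19919 to 33585 with seminal plasma, so the KRT6 copies could not be separated.

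**Figure D3:**
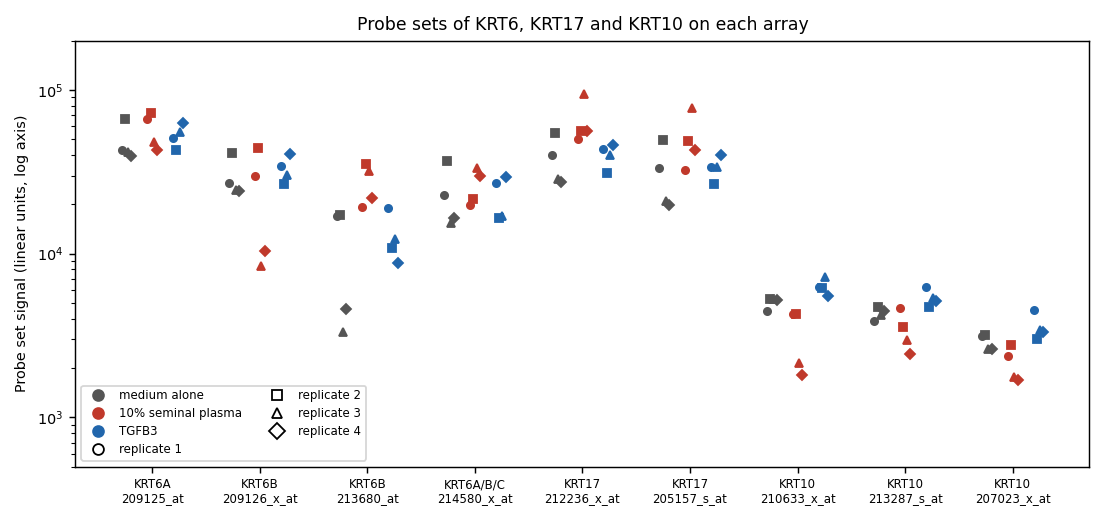
Signals of the probe sets of the KRT6 genes, KRT17 and KRT10 on each array (linear units on a log axis), with colours for treatment and symbols for replicate number. Seminal plasma arrays 3 and 4 are lowest on the first KRT6B probe set but not on the second, while seminal plasma array 3 is highest on both KRT17 probe sets and the 3 KRT10 probe sets all have low arrays 3 and 4.

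KRT16, the type I partner of the KRT6 keratins, had signals of 10710, 13767, 2446 and 4058 in control, 2499, 7060, 8609 and 1479 with seminal plasma and 10152, 4484, 4962 and 7434 with TGFB3. The groups overlapped throughout. It changed by -0.68 ± 0.67 with seminal plasma (interval -2.16 to 0.81; limma adjusted p = 0.55; -0.56 without arrays 3 and 4) and by 0.05 ± 0.67 with TGFB3 (limma adjusted p = 1).

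KRT10, the type I keratin of cornifying layers, was low with seminal plasma, without passing the test. Its signals were 4485, 5257, 5310 and 5220 in control, 4298, 4251, 2147 and 1823 with seminal plasma and 6265, 6138, 7243 and 5517 with TGFB3. All seminal plasma arrays were below all controls, and all TGFB3 arrays were above all controls. The changes were -0.80 ± 0.28 with seminal plasma (interval -1.41 to -0.18; limma adjusted p = 0.116), 0.31 ± 0.28 with TGFB3 (limma adjusted p = 0.95) and -1.11 ± 0.28 for seminal plasma against TGFB3 (interval -1.72 to -0.49; limma adjusted p = 0.0687). Arrays 3 and 4 decided most of this: without them the change was -0.24 (limma adjusted p = 0.425) against control and -0.55 (limma adjusted p = 0.111) against TGFB3. The other KRT10 probe sets changed by -0.38 and -0.46 with seminal plasma and by 0.31 and 0.29 with TGFB3. On both of these the seminal plasma arrays overlapped the controls but lay below all TGFB3 arrays. The TGFB3 arrays were above all controls on the first of them and overlapped the controls on the second.

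KRT9, a type I keratin of palm and sole skin, ranged from 230 to 316 in control, 211 to 332 with seminal plasma and 229 to 297 with TGFB3, with changes of 0.06 ± 0.19 and 0.00 ± 0.19 (limma adjusted p = 0.873 and 1). Without arrays 3 and 4 its change with seminal plasma was -0.13. KRT13, the type I keratin of wet stratified mucosa and the only one of its group with a bright signal, had signals of 1233, 790, 1028 and 1391 in control, 1437, 3006, 1418 and 154 with seminal plasma and 657, 1112, 1143 and 1060 with TGFB3. Seminal plasma array 2 was highest and array 4 lowest of all 12. KRT13 changed by -0.14 ± 0.73 with seminal plasma (limma adjusted p = 0.927), and by 0.94 without arrays 3 and 4 (limma adjusted p = 0.287). KRT75, a type II keratin of the hair companion layer, ranged from 274 to 475 in control, 297 to 1286 with seminal plasma and 228 to 502 with TGFB3, and changed by 0.88 ± 0.44 with seminal plasma (limma adjusted p = 0.236), or 0.79 without arrays 3 and 4.

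The spread between replicates was itself large for some keratins. In control, the ratio of the highest to the lowest array exceeded 3 for 4 of the 17 bright keratins, against 2.01% of all 10883 genes with a mean of 200 or more. These 4 were KRT23 (15.9), KRT15 (7.2), KRT16 (5.63) and KRT80 (3.8). KRT23, a type I keratin of simple epithelia, had control signals of 667, 640, 42 and 169, and KRT80, a widely used type II keratin, had 1008, 757, 266 and 336. In both, as in KRT16, controls 1 and 2 were high and controls 3 and 4 low, the reverse of KRT15. With seminal plasma 7 of the 17 exceeded 3 (19.1% of all genes with that mean), and with TGFB3 2 did (4.13%). With seminal plasma KRT23 changed by -1.76 ± 0.89 (interval -3.72 to 0.20; limma adjusted p = 0.244) and KRT80 by -0.76 ± 0.74 (limma adjusted p = 0.535). Without arrays 3 and 4 the changes were -1.07 for KRT23 and 0.44, with the other sign, for KRT80 (limma adjusted p = 0.732 and 0.8). KRT23 reached the line of 200 only through its controls, with group means of 379.5, 83.8 with seminal plasma and 172.5 with TGFB3. Neither its fall nor its control spread is therefore independent of that line.

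Counted over the family, 1 of the 50 keratin genes was called with seminal plasma against control, where 3.26% of all genes were called, and 0 were called with TGFB3 against control, where 0.294% were. By unadjusted limma p under 0.05, 8 keratin genes passed with seminal plasma against control, where 26.8% of all genes did, and 2 with TGFB3 against control, where 9.78% did. For seminal plasma against TGFB3, 1 was called, again KRT18, where 1.96% of all genes were. Groups did not overlap for 3 keratin genes higher with seminal plasma than in control (KRT14, KRT18 and KRT33B; 8.37% of all genes) and for 1 lower (KRT10; 7.55%). With TGFB3 against control 1 was higher (KRT10; 4.56%) and 0 lower (6.56%). For seminal plasma against TGFB3, 5 were higher (KRT17, KRT18, KRT33B, KRT38 and KRT77; 6.58%) and 1 lower (KRT10; 4.77%).

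**Figure D4:**
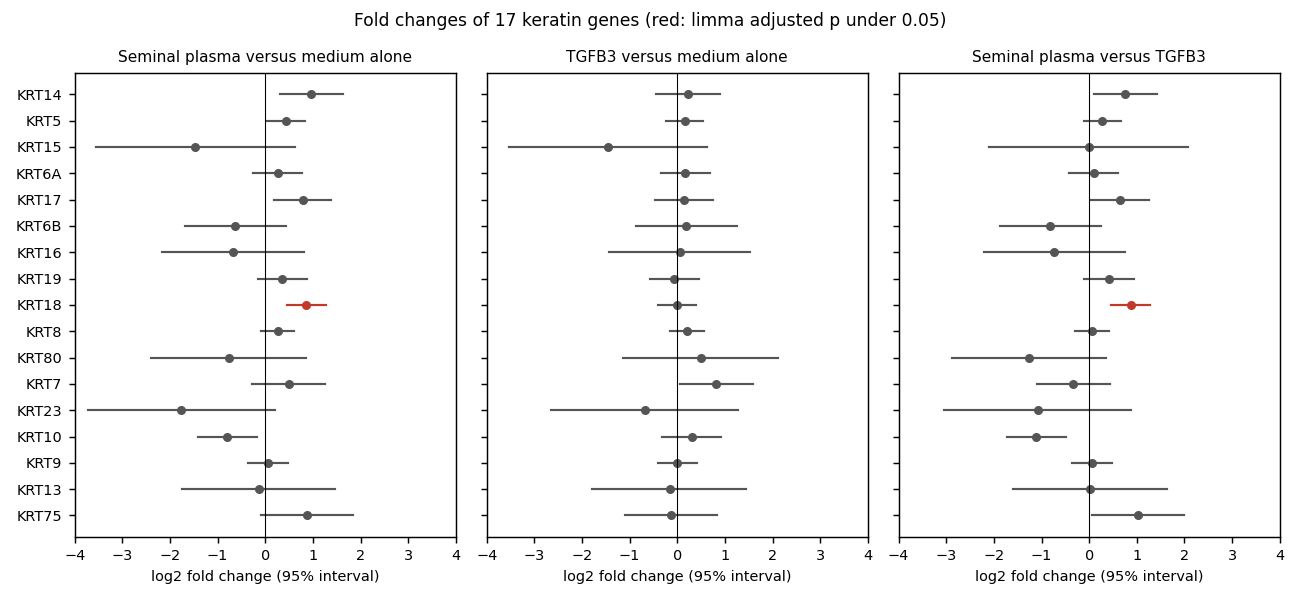
Log2 fold changes with 95% intervals from limma for the 17 bright keratin genes in the 3 comparisons, red where the adjusted p is under 0.05. KRT18 alone is red, in both comparisons with seminal plasma (0.86 and 0.87), and its interval with TGFB3 against control lies around -0.00.

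With seminal plasma against control, 32 keratin genes had a change above 0 and 17 below, with a median of 0.31, against 0.11 for all genes. Among the 17 bright genes the median was 0.26 (range -1.76 to 0.97), against -0.10 for all genes with a mean of 200 or more. Without arrays 3 and 4 the median of the bright genes was 0.44. The low end of the range was KRT23, which was bright only through its controls. With TGFB3 against control the median was 0.03 over 50 keratins (-0.01 for all genes) and 0.14 over the bright ones (-0.07). The 2 treatments share their control arrays, so these values stand side by side and are not compared.

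The 33 dim keratins gave no call, with a smallest limma adjusted p of 0.083 with seminal plasma, for KRT38. The 15 hair and nail keratins had a median of 0.92 with seminal plasma, 11 of them above 0, and of 0.03 with TGFB3. With seminal plasma 11174 of all 19748 genes were above 0, but only 4779 of the 10883 with a mean of 200 or more. Dim genes in general were thus above 0 more often than bright ones, and the 11 of 15 are not read as a trait of hair keratins. No median of the dim genes alone was taken to set beside the 0.92. KRT33B, a type I hair keratin, had signals of 97, 22, 72 and 30 in control, 156, 154, 144 and 137 with seminal plasma and 13, 60, 100 and 17 with TGFB3, a change of 1.67 ± 0.64 with seminal plasma (limma adjusted p = 0.141), or 1.74 without arrays 3 and 4. KRT38, another type I hair keratin, had 62, 133, 175 and 113 in control and 216, 167, 262 and 248 with seminal plasma, a change of 0.96 ± 0.29, or 0.75 without arrays 3 and 4. The KRT33B seminal plasma arrays were above all others, and those of KRT38 overlapped the controls through control 3. Seminal plasma arrays 3 and 4 had fewer probe sets below 16 than the others, and the part of this in the dim keratins was not tested. The authors' deposited table called KRT34, a type I hair keratin, with a fold of 3.99 and p = 0.0454. In the fit used here KRT34 changed by 2.0 ± 0.95 with seminal plasma (interval -0.09 to 4.1; limma adjusted p = 0.219), or 2.72 without arrays 3 and 4. Its seminal plasma arrays overlapped the controls, and 3 of the 12 arrays lay below 16.

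Other genes of the keratin network were taken from lists of linker and other keratin-associated proteins, other intermediate filaments and transcription factors. The first list held linkers of filaments to junctions, junction plaque proteins and other keratin-associated proteins such as FLG, FLG2, RPTN and TCHH. Of its 17 measured genes, 13 had a mean of 200 or more, and FLG, FLG2, RPTN and TCHH were not among these. In that list 1 gene fell with seminal plasma, where 1.38% of all genes fell, and 16 did not pass the test (median -0.36). The linker DST, which anchors keratin filaments at hemidesmosomes, had signals of 10261, 10999, 11603 and 10208 in control, 5126, 5148, 1788 and 3611 with seminal plasma and 8482, 6257, 6325 and 7006 with TGFB3. All seminal plasma arrays were below all TGFB3 arrays, and these below all controls. DST changed by -1.57 ± 0.30 with seminal plasma (limma adjusted p = 0.0284), by -1.07 without arrays 3 and 4 (limma adjusted p = 0.0188) and by -0.63 ± 0.30 with TGFB3 (limma adjusted p = 0.704). Its call was lost without control 1, 2, 3 or 4 or seminal plasma 4, with limma adjusted p between 0.0677 and 0.0826, with 2 groups only (0.106) and with the replicate number as a block (0.064).

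None of 16 other intermediate filament genes passed the test in any comparison (median -0.23 with seminal plasma, 0.01 with TGFB3). Of 15 transcription factors known to act on keratin genes, 1 rose with seminal plasma, where 1.88% of all genes rose, and 14 did not pass (median -0.37). SOX9, a factor of hair follicle and glandular epithelia, had signals of 701, 865, 534 and 630 in control, 4538, 2928, 3264 and 2815 with seminal plasma and 1177, 2913, 2412 and 945 with TGFB3. Its change was 2.31 ± 0.35 with seminal plasma (limma adjusted p = 0.0136), or 2.44 without arrays 3 and 4 (limma adjusted p = 0.0618), and 1.32 ± 0.35 with TGFB3 (limma adjusted p = 0.259). Every treated array was above every control in both cases. With TGFB3, 0 genes of the 3 lists passed.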

How the data were processed

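The authors deposited 1 linear intensity per probe set and array for 12 Affymetrix U133 Plus 2.0 arrays. The submitters' processing notes name MAS5, RMA and Partek beside GCOS 1.4 and R 2.6.1, without saying what each did. The labels' protocols and the design text differ on the labelling method. A second table adds the authors' signed fold (a score, as deposited), p-value and call for each treatment, from a test not given in the sources used here. Signals below 16 were set to 16 and log2 was taken, with no further normalization and no filter. That understates changes near the floor. Groups were compared with limma 3.58.1 in R 4.3.3 on all 12 arrays, and p-values were adjusted by the Benjamini-Hochberg method over 54613 probe sets (threshold 0.05). The number of arrays, 4 a group, limits the precision. Keratin genes with a mean of 200 or more over 12 arrays, or called in a comparison, are named with values. KRT33B, KRT34, KRT38 and KRT77 were named after their values were seen. Gene names are those deposited, 49 of 50 current in RefSeq. No genome was used, so only promoter coordinates are given. Members, lists and tests were chosen with earlier results of these data known. The fit was tested on simulated data. Ratios of partners used exact permutation tests. Python 3.11.15 was used for tables (pandas 2.3.3), permutation tests (scipy 1.17.1) and plots (matplotlib 3.10.9).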

Additional observations from a re-analysis of the deposited data

Results flagged for a closer look

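In 3 of 51 groups of 4 arrays of the bright keratins, 1 array lay far from the other 3. On the log2 scale, the gap to the nearest array as a share of the group's range exceeded Dixon's critical value for 4 samples, which chance exceeds in about 5% of groups. The signals in brackets are linear. KRT13 on TGFB3 replicate 1 (657, the others 1060 to 1143) gave 0.864. KRT10 on control replicate 1 (4485, the others 5220 to 5310) gave 0.899. KRT6A on control replicate 2 (66768, the others 39664 to 43063) gave 0.842.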

How the results depend on the processing

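The number of keratin genes changed with seminal plasma against control, 1 as analysed, became 2 with a floor of 64 (KRT18, KRT33B) and with intensity trend and robust fitting (KRT14, KRT18). With a floor of 1 it stayed 1, but the gene was KRT36, below 16 on all 12 arrays, and KRT18 was lost (limma adjusted p 0.0805). It became 0 after quantile normalization, after median centring, with 2 groups only, with the replicate number as a block and without seminal plasma arrays 3 and 4. Leaving out 1 array gave 0 to 4, the 4 being KRT10, KRT14, KRT18 and KRT38 without seminal plasma replicate 2. Against TGFB3, 1 as analysed, it became 2 with a floor of 64 (KRT18, KRT33B) and with trend and robust fitting (KRT10, KRT18). It became 0 with a floor of 1, quantile normalization, median centring, array weights, 2 groups only, the block and without seminal plasma arrays 3 and 4, and 0 to 3 when 1 array was left out, KRT10 alone without seminal plasma replicate 1. With TGFB3 against control it was 0 throughout. KRT18 passed in 8 of 23 alternatives with seminal plasma against control (values 0.44 to 0.96, limma adjusted p 0.0115 to 0.263), and leaving out 1 array kept the call only without seminal plasma 2, TGFB3 1 or TGFB3 4. Among the 8 is the alternative that takes each gene's most variable probe set. KRT18 has only 1 probe set, so that alternative repeats the main fit and its pass was fixed in advance. The cause of the lost calls was not tested. Same-numbered arrays correlated between -0.0912 and 0.154 in their deviations and are not known to be pairs. With the replicate block, KRT18 had a limma adjusted p of 0.0794. Over all probe sets, calls with seminal plasma went from 1608 to between 197 and 8900, with TGFB3 from 104 to between 21 and 1771, and between the treatments from 945 to between 12 and 7055. Rises and falls with seminal plasma numbered 948 and 660 as analysed, 671 and 561 after quantile normalization and 299 and 488 after median centring. Of 1127 values of uncalled bright keratins under alternatives, 83 had the other sign and 6 passed. Many alternatives, such as trend and robust fitting, the block and 2 groups only, leave the fold change itself unaltered. The share with the other sign is therefore no measure of stability. SOX9 and DST passed in 21 and 15 of 22. No value called as analysed changed sign. Of the 33 dim keratins, 7 lay below 16 on 6 or more arrays, where differences could not be resolved.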
